A study of Rattus norvegicus with 27 samples.

Results

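Steroid signalling genes were examined in 27 libraries of medial prefrontal cortex (mPFC), each from 1 adult male rat of the Wistar strain. The 8 genes were the rows of the count table whose NCBI gene ID carries the rat symbol Shbg, Esr1, Esr2, Pgr, Srd5a1, Tspo, Hsd17b4 or Cyp7b1, and all 8 were found among the 36865 rows. They were chosen by name, with Shbg as the starting point because the study lists it with the light-dark (LD) test. That listing comes from these same libraries. The libraries form 1 group with no untreated controls. Each library came from the bilateral mPFC (infralimbic, prelimbic and anterior cingulate cortex) of 1 resting outbred rat, taken from its home cage in the early active phase. The labels give learned helplessness as the treatment of every rat, and list the elevated plus-maze, LD, open field, acoustic startle and fear conditioning tests, while the methods describe repeated plus-maze, LD and open field testing with a rest period before sampling, and say that every second animal of a ranking by composite anxiety score was sequenced. Anxiety scores were not used here, so what follows is how the genes varied from rat to rat and with what they varied.

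Circulating sex steroids and steroids made in the brain act on cortical cells through nuclear receptors, which bind DNA together with coregulators, and through membrane receptors. Esr1 and Esr2 encode the estrogen receptors alpha and beta, and Pgr encodes the progesterone receptor, a gene that estrogen receptors are known to induce in many tissues. Shbg encodes sex hormone-binding globulin, a carrier protein of androgens and estrogens, which in rodents is best known as the androgen-binding protein secreted in the testis, since the adult rodent liver, unlike the human liver, makes little of it. The other 4 genes handle steroids inside cells. Tspo encodes a protein of the outer mitochondrial membrane that binds cholesterol and is widely used as a marker of glial activation. Srd5a1 encodes steroid 5-alpha-reductase, which reduces testosterone and progesterone on the way to neurosteroids. Hsd17b4 encodes a peroxisomal enzyme that oxidizes estradiol and takes part in the breakdown of very long chain fatty acids. Cyp7b1 encodes the oxysterol hydroxylase that also acts on dehydroepiandrosterone and pregnenolone.

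The promoters of the genes that the results below turn on are shown because several members varied together or with a cell type. They are 300 bases long, from 250 bases before to 50 after the annotated start, in the direction of transcription, taken from RefSeq promoters of the rat build GRCr8, and the table used here matched 6 of the 8 members, all but Tspo and Cyp7b1. They lie at chr10:54834852-54835151, minus strand for Shbg, chr8:14354148-14354447, plus strand for Pgr, chr1:35514664-35514963, plus strand for Srd5a1 and chr18:45515177-45515476, plus strand for Hsd17b4. Capitals mark 4 motifs, searched on both strands: AGGTCA or TGACCT, the core of estrogen response elements, AGAACA or TGTTCT, the core bound by glucocorticoid and progesterone receptors, the GC box GGGCGG or CCGCCC, and the TATA motif TATAAA or TTTATA.
Shbg: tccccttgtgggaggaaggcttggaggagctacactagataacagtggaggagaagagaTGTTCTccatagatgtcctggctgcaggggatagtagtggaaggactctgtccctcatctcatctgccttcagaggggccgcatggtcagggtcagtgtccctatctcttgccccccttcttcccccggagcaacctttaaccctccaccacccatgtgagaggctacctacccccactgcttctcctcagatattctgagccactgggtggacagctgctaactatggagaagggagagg
Pgr: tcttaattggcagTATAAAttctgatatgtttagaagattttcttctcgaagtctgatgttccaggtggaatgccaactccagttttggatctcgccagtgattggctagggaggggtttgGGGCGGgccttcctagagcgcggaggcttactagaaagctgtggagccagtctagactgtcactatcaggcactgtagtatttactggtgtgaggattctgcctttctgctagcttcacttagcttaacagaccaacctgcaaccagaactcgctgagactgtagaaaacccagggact
Srd5a1: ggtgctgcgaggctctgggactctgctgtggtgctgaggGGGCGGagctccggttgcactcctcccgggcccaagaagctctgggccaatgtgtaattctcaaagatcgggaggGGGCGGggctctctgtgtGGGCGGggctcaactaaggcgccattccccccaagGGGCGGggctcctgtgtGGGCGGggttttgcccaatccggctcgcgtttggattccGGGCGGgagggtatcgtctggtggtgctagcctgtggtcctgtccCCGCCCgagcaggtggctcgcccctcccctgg
Hsd17b4: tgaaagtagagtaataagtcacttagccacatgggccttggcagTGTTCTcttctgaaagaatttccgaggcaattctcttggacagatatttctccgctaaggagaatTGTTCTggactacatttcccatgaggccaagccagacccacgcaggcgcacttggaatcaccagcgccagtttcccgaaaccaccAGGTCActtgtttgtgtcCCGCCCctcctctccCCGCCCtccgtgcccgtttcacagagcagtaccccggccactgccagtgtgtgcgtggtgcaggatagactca

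The Shbg window held 1 TGTTCT and no other motif of the 4. The Pgr window held 1 GC box and 1 TATAAA, and Srd5a1 held 7 GC boxes. Hsd17b4 was the member with most kinds of motif, with 1 AGGTCA, 2 TGTTCT and 2 GC boxes. The windows of Esr1 and Esr2 held none of the 4. Among all 33469 promoters of this length, 16.2% held the estrogen element core, 20.7% the glucocorticoid and progesterone core, 33.1% a GC box and 14.2% the TATA motif. Holding at least 1 match is thus common, while how often a window holds 2 or 7 copies was not counted. The matches are only a description of the letters in the window.

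Total counts ran from 4907255 to 12771309 reads per library (median 8168801). They split by the number in the sample title: the 16 libraries numbered up to 31 held 4907255 to 8568317 reads and the 11 numbered from 32 held 9404220 to 12771309. What the numbers stand for is not given. The methods draw the male Wistar rats from 2 cohorts without saying which library belongs to which, so cohort, depth and whatever else goes with the numbering cannot be told apart, and the called pairs of members and the rank relations with scores described below are also given within these 2 blocks. Markers of cortical cells were present as labelled, with all 7 listed markers of excitatory neurons, all 8 of astrocytes and all 8 of oligodendrocytes at a mean count of 10 or more. The interneuron marker Sst was listed at 0 in every library, as were genes that most cells use such as Por and Ncoa3, so a listed 0 in this table is not read as absence. Library 3 stood apart: its median correlation with the other libraries over genes was 0.957, against 0.976 to 0.986 for the rest, its summed excitatory neuron markers were the lowest (12536 normalized counts) and its summed oligodendrocyte markers the highest (62970). It was also the lowest library for Pgr and the highest for Tspo, Srd5a1 and Hsd17b4, so results are given without it where it changes a call. Library 19 had the next lowest excitatory neuron score.

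Levels are given as normalized counts, that is reads divided by the library's size factor, and are not compared between genes because transcript length was not taken into account. Shbg, the carrier protein, was detected in every library, with 23 to 99 reads and a mean of 53.1 ± 14.5 normalized counts (SD, n = 27). The lowest library stood at 24.1, the median at 51.5 and the highest at 88.7, a range of 3.68-fold. Low and high libraries were not separated by a gap. Libraries 15, 12 and 19 were lowest and libraries 24, 35 and 47 highest. Counting alone accounted for 25.8% of the variance, which left a coefficient of variation of 23.6% between rats after counting noise was taken off (27.4% before). The study also took Shbg to qPCR in the same mPFC RNA. It was not among the genes whose qPCR and sequencing values correlated significantly there. The study adds that most genes without that correlation had fold changes below the usual qPCR cut-off.

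The estrogen receptors were at the edge of detection. Esr1 had 64 reads in all 27 libraries together, 0 to 7 per library, and no read in 4 libraries. This is 0.269 CPM, reads scaled to the library total (exact Poisson 95% interval 0.208 to 0.344). In the libraries without a read, a count of 0 allows up to 0.278 to 0.531 CPM. Esr2 had 46 reads in all, 0 to 5 per library, with no read in 7 libraries, or 0.194 CPM (0.142 to 0.258), and a 0 there allows up to 0.245 to 0.487. These intervals cover counting error only, since reads of amplified copies cannot be told from separate molecules. Mean normalized counts were 2.31 ± 1.65 for Esr1 and 1.67 ± 1.44 for Esr2 (SD, n = 27), and both fell under the minimum mean count of 10 used below.

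Pgr, by contrast, was measured in every library. It had 12 to 119 reads and a mean of 73.8 ± 22.4 normalized counts (SD, n = 27), with the lowest library at 18.4, the median at 72.7 and the highest at 118. The lowest value belonged to library 3, and the next, 40.6, to library 19, while the third lowest was already 50.5. Libraries 12, 20 and 15 were highest. The spread was 6.43-fold from lowest to highest, with 28% left as coefficient of variation after counting noise (30.4% before). Without library 3 the SD of the log2 values went from 0.52 to 0.37.

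Among the genes that handle steroids, Tspo spread most. It ranged from 31.2 through a median of 53.1 to 159 normalized counts (mean 65.1 ± 29.3, SD, n = 27; 34 to 111 reads), and only 7.76% of its variance was counting noise. Library 3 was highest, followed by 24 and 26 with 121.6 and 110.3, and without library 3 the mean of the other 26 was 61.5. Its coefficient of variation beyond counting was 43.3%.

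Srd5a1, Cyp7b1 and Hsd17b4 were steadier. Srd5a1 lay between 150 and 250.8 normalized counts with a median of 195.1 (mean 196.2 ± 23.1, SD, n = 27; 122 to 323 reads), and 37.7% of its variance was counting noise. Cyp7b1 lay between 147.1 and 264.2 with a median of 182.8 (mean 186.3 ± 30.3, SD, n = 27; 110 to 249 reads). Hsd17b4 lay between 509.3 and 737.1 with a median of 581.5 (mean 595 ± 55.2, SD, n = 27; 376 to 833 reads). The highest libraries were 3, 9 and 24 for Srd5a1, 5, 9 and 20 for Cyp7b1, and 3, 9 and 5 for Hsd17b4, so library 9 was among the highest for all 3 enzymes. Beyond counting, the coefficients of variation were 9.3% for Srd5a1, 14.5% for Cyp7b1 and 8.29% for Hsd17b4.

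**Figure D1:**
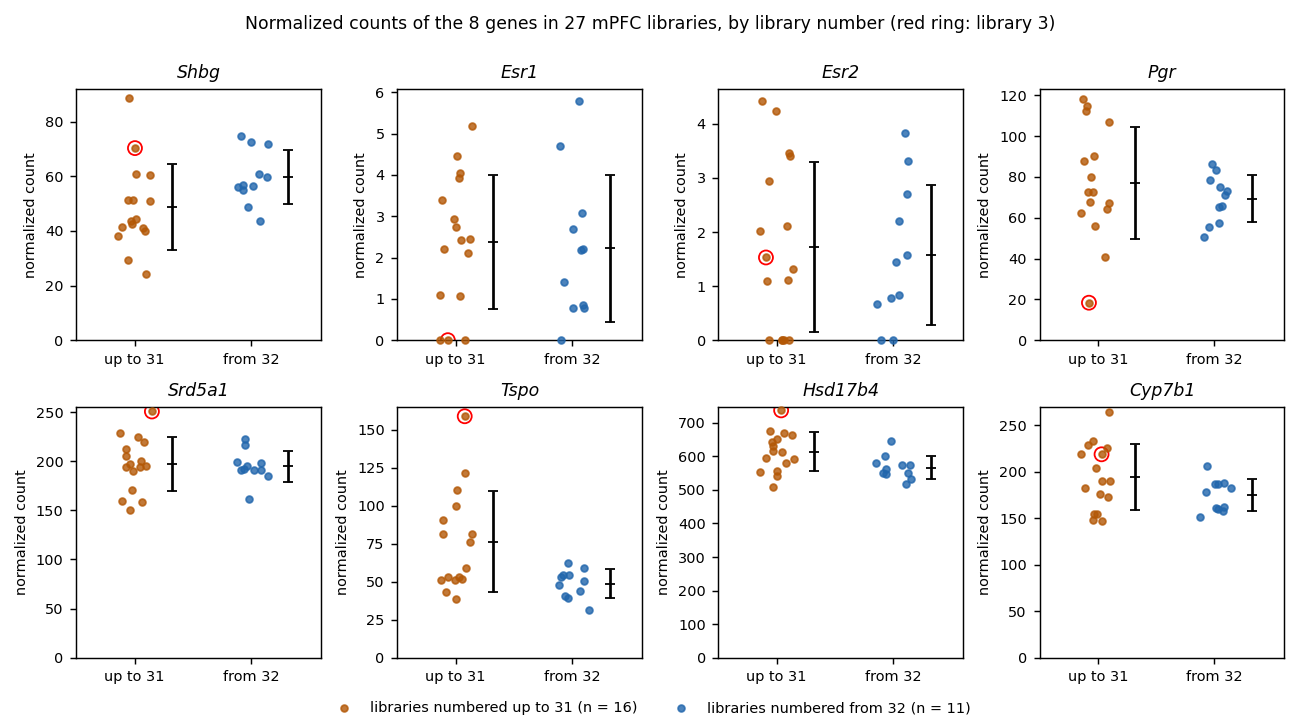
Normalized counts (vertical axes, linear from 0) of the 8 genes in each of the 27 libraries, by library number, with the mean and SD of each block in black and library 3 ringed in red. Tspo reached 159 in the block up to 31 and 62.4 in the block from 32, and Pgr was lowest in library 3 at 18.4.

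A dispersion test (chi-square, against Poisson counts) asked for each gene whether the rats differed by more than counting noise, adjusted over the 11730 genes whose mean count reached 10. All 6 members above that minimum passed, but so did 89.8% of all genes tested, so the calls say little about these genes in particular. Adjusted p-values of this test ran from 4.461e-05 for Srd5a1 through 4.222e-10 for Shbg to 8.13e-49 for Tspo. The size of the spread was less alike. The SD of the log2 values was 0.55 for Tspo, 0.52 for Pgr and 0.41 for Shbg, higher than in 94.1%, 93.1% and 85.9% of the genes, although genes with few reads spread more by counting. It was 0.23 for Cyp7b1, 0.17 for Srd5a1 and 0.13 for Hsd17b4, around and below the median gene (0.19). For Esr1 and Esr2 the spread could not be told from counting: 87.0% and 82.6% of their variance was what counting gives, and the dispersion test without the minimum gave adjusted p-values of 0.255 and 0.213. In the 11 deeper libraries alone Srd5a1 also missed the threshold (dispersion test, adjusted p = 0.0654), while the other 5 members passed.

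**Figure D2:**
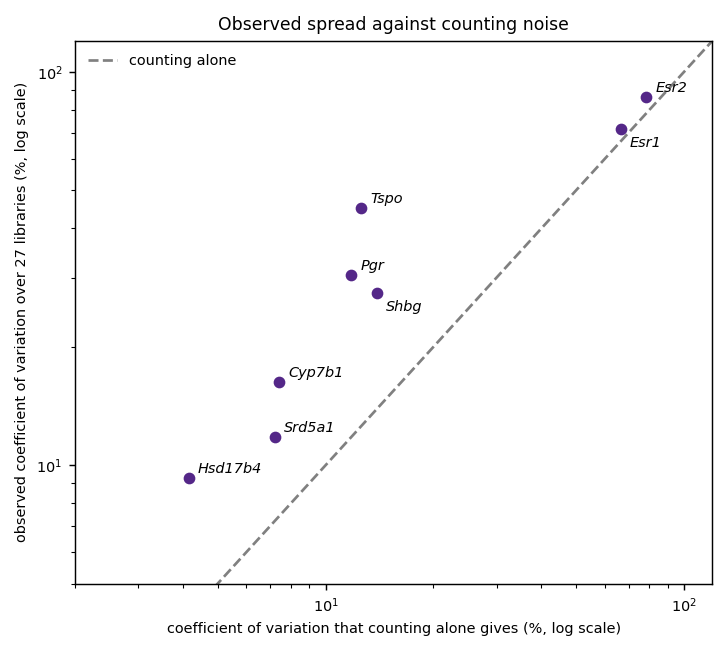
Observed coefficient of variation over the 27 libraries (vertical, %, log scale) against the coefficient that counting alone gives (horizontal, %, log scale), 1 point per gene, with the dashed line where they are equal. Esr1 and Esr2 lie on or near the line, and Tspo lies furthest above it, with an observed value of 45.1%.

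Tspo was the member that differed between the library number blocks. In the 16 libraries up to number 31 it ran from 38.6 through a median of 67.6 to 159 normalized counts, and in the 11 from number 32 from 31.2 through 50.4 to 62.4. The blocks overlapped, with 8 of the 16 lower-numbered libraries above the highest of the others. It was lower by a log2 difference of -0.63 (SE 0.19, edgeR quasi-likelihood test, adjusted p = 0.017) in the libraries from number 32. Of the 6 members tested 1 was lower and 0 were higher, against 9.18% lower and 8.85% higher among the 11716 genes tested. Marker scores moved with the blocks as well: the excitatory neuron score had a mean of -0.3 up to number 31 and 0.436 from number 32, and the astrocyte score 0.283 and -0.412. Their part in the Tspo difference was not tested. Without library 3 the difference was -0.53 (edgeR adjusted p = 0.0226), and with the library number as a continuous covariate it missed the threshold, with -0.25 per SD (edgeR, adjusted p = 0.0716).

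Shbg went the other way without passing the test. In the lower-numbered block it had 48.6 ± 15.8 normalized counts (SD, n = 16), and in the higher-numbered 59.7 ± 9.87 (SD, n = 11), a log2 difference of 0.29 (95% interval 0.02 to 0.57, edgeR adjusted p = 0.147). The blocks overlapped, with 8 of the 16 lower-numbered libraries below every library from number 32 and 1 above. Differences for the other members were -0.11 for Hsd17b4, -0.15 for Cyp7b1, -0.16 for Pgr and -0.01 for Srd5a1, with edgeR adjusted p-values from 0.0915 to 0.927. With the library number as a continuous covariate Hsd17b4 and Cyp7b1 passed, with -0.09 and -0.12 per SD of the number (edgeR, adjusted p = 0.00167 and 0.0178).

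The members were next set against the cell types of the tissue. A dissected sample holds neurons, glia, vessels and, depending on the cut, meninges, and in such bulk tissue fewer cells of a type and less RNA per cell cannot be told apart. For each of 7 cell types a score was formed from its marker genes, and the change of every gene per SD of the score was fitted with the library number block as a covariate. The scores were fitted in turn and not adjusted for each other.

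Srd5a1, the 5-alpha-reductase, rose with the oligodendrocyte score, by 0.14 log2 per SD (SE 0.02, edgeR adjusted p = 0.000999). Summed oligodendrocyte markers ranged from 18078 to 62970 normalized counts up to number 31 and from 18153 to 36316 from number 32, with 8 of 8 markers detected. Without library 3 the change was 0.11 (edgeR adjusted p = 0.014). By rank the relation was rho = 0.584 (permutation p = 0.00191, adjusted 0.0401 over 42 relations of members and scores) and r = 0.773 (permutation p = 1e-05, the smallest these permutations give, adjusted 0.00021), with r = 0.647 without the 2 libraries farthest from the median score. Within the blocks rho was 0.729 (permutation p = 0.00179, n = 16) and 0.255 (permutation p = 0.452, n = 11).

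Cyp7b1 rose with the same score by 0.13 log2 per SD (SE 0.04, edgeR adjusted p = 0.0307), though not when library 3 was left out (0.13, adjusted p = 0.055) or the block was dropped from the fit (0.12, adjusted p = 0.106). Its rank relation with this score was rho = 0.465 (permutation p = 0.0153, adjusted 0.095) and r = 0.533 (permutation p = 0.00427, adjusted 0.0224; 0.462 without the 2 farthest libraries), and within the blocks rho was 0.644 (permutation p = 0.00848, n = 16) and 0.0454 (permutation p = 0.903, n = 11). With Srd5a1 this made 2 of 6 members rising and 0 falling, against 2.34% rising and 1.05% falling of all genes.

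Cyp7b1 also rose with the astrocyte markers, by 0.17 log2 per SD of the astrocyte score (SE 0.03, edgeR adjusted p = 0.00271), 1 of 6 members rising and 0 falling, against 1.39% rising and 0.102% falling of all genes. Summed astrocyte markers, all 8 detected, ranged from 21621 to 31845 up to number 31 and from 21142 to 29455 from number 32. The libraries with the most Cyp7b1, 5 and 9 with 264.2 and 233.2 normalized counts, had astrocyte scores of 2.11 and 1.22, and those with the least, 28 and 17, had scores of -0.263 and -0.973. The relation held by rank, with rho = 0.714 (permutation p = 4e-05, adjusted 0.00168) and r = 0.766 (permutation p = 1e-05, adjusted 0.00021; 0.684 without the 2 farthest libraries). Within the blocks rho was 0.715 (permutation p = 0.00268) and 0.564 (permutation p = 0.0762). Without library 3 the change was 0.16 (edgeR adjusted p = 0.00725). The astrocyte score itself moved with the microglia score, with rho = 0.792 (permutation p = 1e-05, adjusted 2e-05) and r = 0.823 (permutation p = 1e-05, adjusted 2e-05; 0.784 without the 2 farthest libraries), and rho of 0.829 and 0.818 within the blocks (permutation p = 0.00016 and 0.00342). With the oligodendrocyte score it had rho = 0.353 (permutation p = 0.0723, adjusted 0.0723) and r = 0.481 (permutation p = 0.0107, adjusted 0.0107; 0.255 without the 2 farthest), and rho of 0.768 and -0.336 within the blocks (permutation p = 0.00084 and 0.312). The part of these other cell types in the rise of Cyp7b1 was not tested.

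Pgr and Tspo moved in opposite directions with the excitatory neuron score. Pgr rose by 0.42 log2 per SD (SE 0.07, edgeR adjusted p = 5.719e-05) and Tspo fell by 0.28 on the log2 scale (SE 0.08, adjusted p = 0.00487). This is 1 of 6 members rising and 1 of 6 falling, against 16.9% rising and 18.6% falling of all genes. Summed excitatory neuron markers, all 7 detected, ranged from 12536 to 23752 normalized counts up to number 31 and from 18063 to 23740 from number 32.

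Both relations rested on the libraries with the fewest excitatory neuron markers. Library 3 had a score of -3.56 with 18.4 normalized counts of Pgr and 159 of Tspo, and library 19 a score of -2.24 with 40.6 and 99.6. Without library 3 Pgr still rose, by 0.23 per SD (edgeR adjusted p = 0.0151), whereas Tspo had -0.15 (adjusted p = 0.241). Without libraries 3 and 19 the values were 0.13 (adjusted p = 0.209) for Pgr and -0.09 (adjusted p = 0.593) for Tspo. By rank, Pgr gave rho = 0.38 (permutation p = 0.0509, adjusted 0.214) and r = 0.744 (permutation p = 0.00026, adjusted 0.00364), which was 0.242 without the 2 farthest libraries. Tspo gave rho = -0.48 (permutation p = 0.0121, adjusted 0.095) and r = -0.634 (permutation p = 0.0007, adjusted 0.00735), or -0.335 without them. Within the blocks, rho for Pgr was 0.638 (permutation p = 0.00975) and 0.191 (permutation p = 0.576), and rho for Tspo was -0.556 (permutation p = 0.0275) and 0.0273 (permutation p = 0.947).

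**Figure D3:**
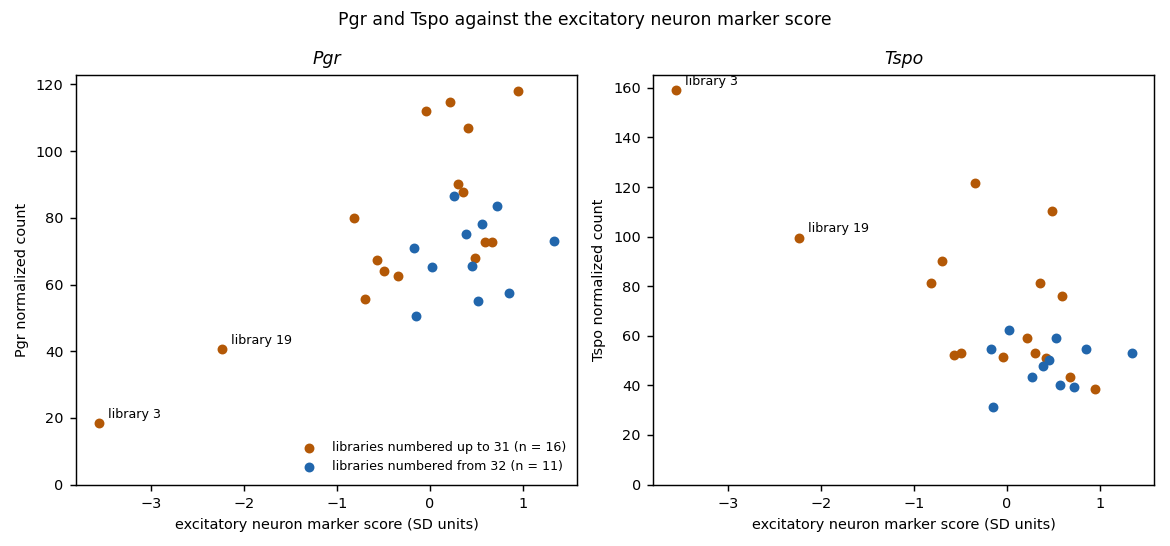
Normalized counts of Pgr (left) and Tspo (right) against the excitatory neuron marker score in SD units, 1 point per library, coloured by library number block. Libraries 3 and 19, labelled, lie at scores of -3.56 and -2.24, away from the other 25 libraries.

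No member was called with the other 4 scores by edgeR. At an unadjusted p under 0.05 there were 1 for microglia, 4 for interneurons, 1 for meningeal fibroblasts and 0 for endothelial cells. How many of all genes passed that unadjusted threshold was not counted, so whether these member counts are unusual cannot be told. DESeq2 called 1, 2, 0 and 0 members with these scores, in the same order. Among all genes it called 165, 1024, 307 and 48. By Pearson's r over the 42 relations, Cyp7b1 passed with the microglia score (0.588, permutation p = 0.00114, adjusted 0.00958), and Pgr (0.577, permutation p = 0.00373, adjusted 0.0224) and Tspo (-0.524, permutation p = 0.00522, adjusted 0.0244) with the interneuron score. By rho these had 0.513, 0.364 and -0.321 (permutation p = 0.00701, 0.0627 and 0.103, adjusted 0.0736, 0.24 and 0.272). Without the 2 farthest libraries r was 0.468, 0.267 and -0.122, and within the blocks rho was 0.473 and 0.573 for Cyp7b1, 0.456 and 0.2 for Pgr, and -0.465 and -0.236 for Tspo (permutation p from 0.0668 to 0.559). For microglia, of which Tspo is often used as a marker, Tspo changed by 0.06 log2 per SD (95% interval -0.12 to 0.25, edgeR adjusted p = 0.899) and Cyp7b1 by 0.13 (0.06 to 0.20, adjusted p = 0.0663), and 0.922% of all genes were called. DESeq2 called Cyp7b1 there (0.13, adjusted p = 0.0225). For the interneuron score, with which 4.42% of all genes were called, Pgr had 0.25 (0.09 to 0.41, edgeR adjusted p = 0.0671), Tspo -0.24 (-0.40 to -0.09, adjusted p = 0.0595) and Shbg -0.18 (-0.31 to -0.06, adjusted p = 0.0801). With median-of-ratios factors in edgeR, or with DESeq2, Pgr and Tspo passed, but without library 3 no gene at all was called with this score. For endothelial cells and meningeal fibroblasts, with 0.29% and 2.47% of all genes called, the member values lay between -0.08 and 0.06 per SD. Shbg was not called with any of the 7 scores, its widest change being that with the interneuron score. Esr1 and Esr2 entered only the fits without a filter on low counts and were not called there either, with edgeR adjusted p-values of 0.12 to 1.00 over the 7 scores and the block, the lowest being that of Esr1 with the excitatory neuron score (0.59 per SD, SE 0.28).

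**Figure D4:**
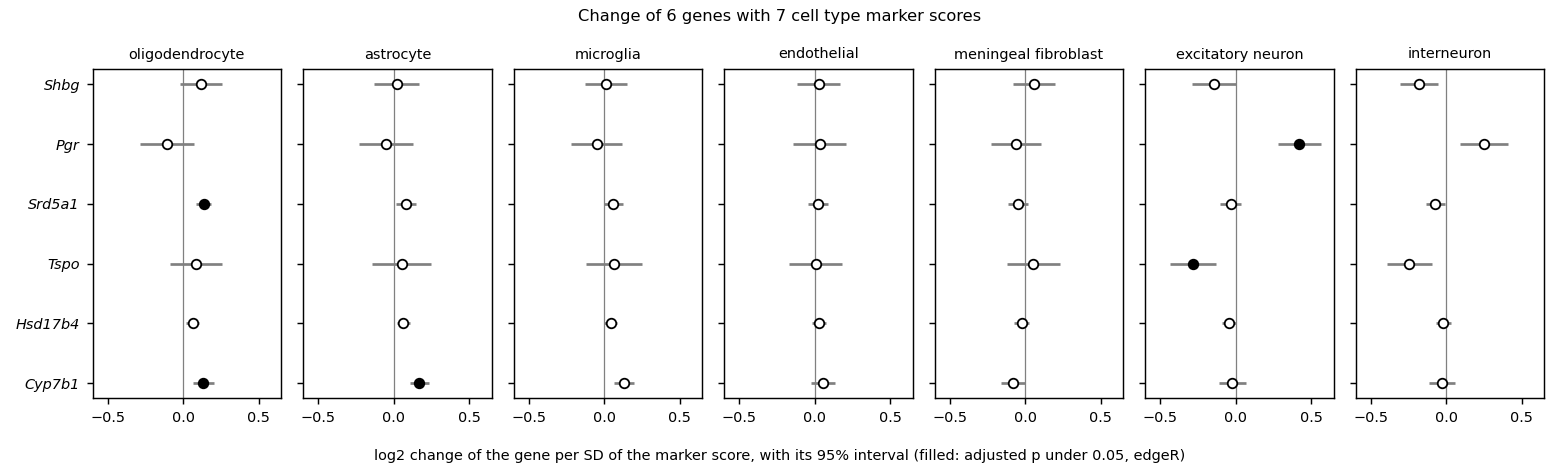
Change of the 6 members that reached the minimum count per SD of each of 7 cell type marker scores (horizontal axes, log2, with 95% intervals), filled where the edgeR adjusted p was under 0.05. Filled points are Srd5a1 and Cyp7b1 for oligodendrocytes, Cyp7b1 for astrocytes, and Pgr (0.42) and Tspo (-0.28) for excitatory neurons.

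Mutual correlation was tested over the 15 pairs of these 6 members. Hsd17b4 and Cyp7b1, the peroxisomal enzyme and the oxysterol hydroxylase, varied together: libraries 5 and 9 were among the 3 highest for both, and rho was 0.689 (permutation p = 0.00015, adjusted 0.00225, n = 27). Pearson's r was 0.709 (permutation p = 6e-05, adjusted 0.0009), and 0.669 without the 2 libraries farthest from the median of Hsd17b4. The relation was present in both blocks, with rho of 0.735 in the lower-numbered (permutation p = 0.00169, n = 16) and 0.655 in the higher-numbered libraries (permutation p = 0.0336, n = 11), and without library 3 (0.667, permutation p = 0.00035). Correlations of this size are not rare in the table: 2.16% of genes had as large a rho, in either direction, with Hsd17b4, and 0.691% with Cyp7b1. Hsd17b4 itself changed by 0.06 per SD of the astrocyte score (95% interval 0.02 to 0.11, edgeR adjusted p = 0.202), and by rank rho was 0.547 (permutation p = 0.00358, adjusted 0.0501) and r 0.576 (permutation p = 0.00169, adjusted 0.0118; 0.401 without the 2 farthest libraries), with rho of 0.688 and 0.564 within the blocks (permutation p = 0.00424 and 0.0754).

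**Figure D5:**
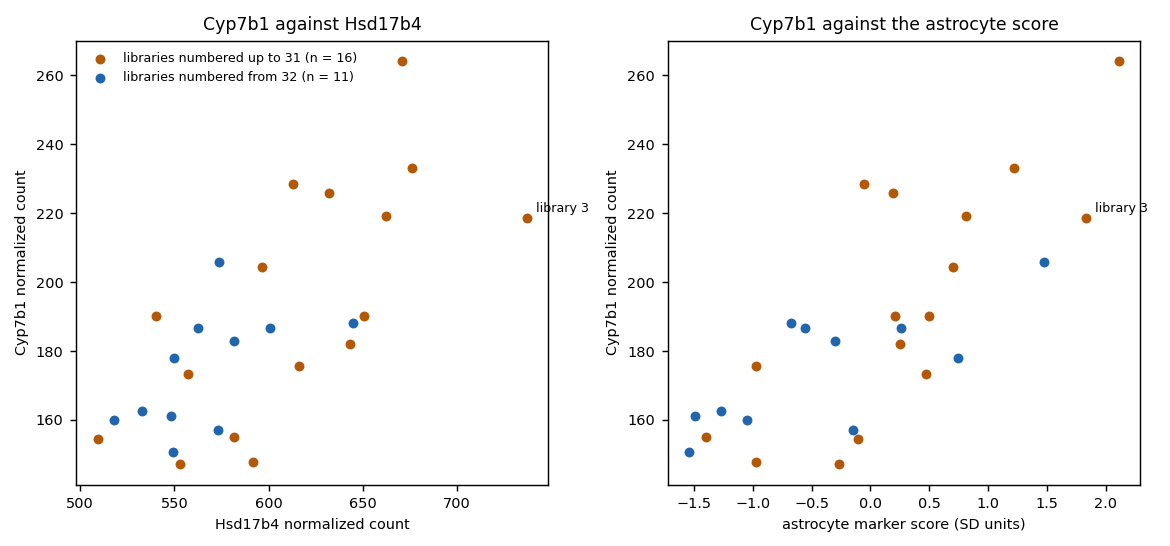
Cyp7b1 normalized counts against Hsd17b4 normalized counts (left) and against the astrocyte marker score in SD units (right), 1 point per library, coloured by library number block, with library 3 labelled. Points of both blocks rise from left to right, with rho of 0.689 on the left and 0.714 on the right.

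The other 14 pairs were not called by rho. Srd5a1 and Cyp7b1 had rho = 0.495 (permutation p = 0.00979, adjusted 0.0734) and r = 0.504 (permutation p = 0.00743, adjusted 0.0371; 0.422 without the 2 farthest libraries), with rho of 0.506 and 0.136 within the blocks (permutation p = 0.0466 and 0.693). The call by r was lost without library 3 (0.465, permutation p = 0.016, adjusted 0.103), without libraries 3 and 19 (adjusted 0.0588) and with counts scaled by library totals (adjusted 0.0559). Pgr and Tspo had rho = -0.415 (permutation p = 0.0324, adjusted 0.121) and r = -0.55 (permutation p = 0.00365, adjusted 0.0274). Leaving out library 3 took that r to -0.311 (permutation p = 0.121), and the 2 farthest libraries, 3 and 19, took it to -0.19. With the block means removed the pair passed by rho as well (-0.548, permutation p = 0.00363, adjusted 0.0272), and within the blocks rho was -0.709 (permutation p = 0.003) and -0.418 (permutation p = 0.203). Without library 3, r of Pgr with Cyp7b1, Hsd17b4 and Srd5a1 moved from 0.135, -0.187 and -0.143 to 0.432, 0.261 and 0.255. None of these 3 was called (permutation test, adjusted p of 0.103 or more).

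Shbg and Pgr had rho = -0.432 (permutation p = 0.0255, adjusted 0.121) and r = -0.466 (permutation p = 0.0167, adjusted 0.0627; -0.305 without the 2 farthest libraries), and -0.494 and -0.373 within the blocks (permutation p = 0.0555 and 0.256). The pair passed by r with the block means removed (-0.488, permutation p = 0.0137, adjusted 0.041) and without libraries 3 and 19 (-0.631, permutation p = 0.00069, adjusted 0.00518), and by rho in neither case (adjusted 0.115 and 0.0589). Libraries 15 and 12, the lowest for Shbg with 24.1 and 29.5 normalized counts, were among the 3 highest for Pgr with 112.1 and 118. Shbg with Srd5a1, Tspo, Hsd17b4 and Cyp7b1 gave rho from -0.259 to 0.189, with unadjusted permutation p-values of 0.192 or more. Shbg and Tspo, whose block means lay in opposite directions, had rho = 0.0873 over all libraries but 0.382 and 0.418 within the blocks (permutation p = 0.146 and 0.203). With the block means removed this pair passed by r (0.495, permutation p = 0.00875, adjusted 0.0328) and not by rho (0.327, permutation p = 0.0953, adjusted 0.238).

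The genes whose values followed each member most closely over the 27 libraries were named by the highest rho among the 11730 genes, as a description. For Shbg they were Gpr108 (0.78), the tetraspanin Tspan1 (0.769) and Hes5 (0.729), a Notch target of neural progenitors. Within the blocks rho was 0.809 and 0.636 for Gpr108, 0.844 and 0.691 for Tspan1, and 0.582 and 0.527 for Hes5. For Pgr they were the sodium channel Scn3a (0.943), the protocadherin Pcdh7 (0.894) and the glutamate receptor Grm5 (0.885), and rho with Scn3a was 0.979 and 0.882 within the blocks and 0.936 without library 3. For Tspo they were the acid phosphatase Acp5 (0.9), the integrin Itga5 (0.862) and Tagln2 (0.86). Srd5a1 was followed by the connexin Gjb1 (0.672), the receptor Gpr37 (0.67) and Clic5 (0.66), of which Gjb1 and Gpr37 are known from myelinating oligodendrocytes, and rho with Gjb1 was 0.829 up to number 31 and 0.236 from number 32. Hsd17b4 was followed by Cldnd1 (0.883), the RNA-binding protein gene Pum2 (0.849) and the chaperone Dnajb9 (0.837). The 3 nearest to Cyp7b1 were Aqp4 (0.835), the astrocyte water channel and itself a marker in the astrocyte score, Ptprz1 (0.821) and Tmem229a (0.82). Some opposite relations were as strong or stronger: the lowest rho was -0.777 for Srd5a1, with Snw1, and -0.794 for Shbg, with Sbno1. For the other 4 members it lay between -0.821 and -0.723. Tspan1 and Sbno1 are, like Shbg, among the genes the study lists with the LD test from these same libraries. Their rho with Shbg is therefore not independent of how Shbg was chosen.

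Reads near a gene can come from its neighbours, and how strand was handled in counting is not given. In the RefSeq list loci without a gene name overlap Esr1, Srd5a1 and Hsd17b4, none of them a row of the count table. There Sat2, a polyamine acetyltransferase, overlaps Shbg. Sat2 had 232.4 ± 25.4 normalized counts (SD, n = 27), and rho with Shbg was 0.194 (permutation p = 0.332; r = 0.272, permutation p = 0.168, 0.278 without the 2 farthest libraries), with 0.626 and 0.182 within the blocks. How many Shbg reads come from the shared stretch was not tested. Fxr2, on the other side of Shbg, had 1496 ± 57.9 normalized counts (SD, n = 27) and rho = 0.161 with it (permutation p = 0.418). Nsun2, next to Srd5a1, had rho = -0.307 with it (permutation p = 0.12; -0.506 and -0.291 within the blocks) and r = -0.455 (unadjusted permutation p = 0.0169; -0.399 without the 2 farthest libraries). Ttll12, next to Tspo, had -0.198 (permutation p = 0.32). Tnfaip8 beside Hsd17b4 had 0.198 (permutation p = 0.321), and Bhlhe22 beside Cyp7b1 had -0.0641 (permutation p = 0.75).

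The wider steroid pathway was taken from a list of 71 further genes found in the table. Of these 48 reached a mean count of 10, 16 had fewer reads and 7 were listed at 0 throughout. All 48 passed the dispersion test (89.8% of all genes did), with a median SD of log2 values of 0.19, the same as over all genes. Between the library number blocks 6 of the 48 were higher from number 32 and 4 were lower, with a median log2 difference of -0.01 (0.00 over all genes). These are 12.5% and 8.33% of the 48, near the 8.85% and 9.18% of all genes, and the differences given below describe single genes.

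Among 14 receptor genes, 12 were above the minimum. The membrane progesterone receptor components Pgrmc1 and Pgrmc2 had 3261 ± 248.8 and 1144 ± 63.4 normalized counts (SD, n = 27). Between the blocks the progestin receptor Paqr6 was higher from number 32 (94.7 against 78.2, log2 0.28, edgeR adjusted p = 0.0293) and the estrogen-related receptor Esrra lower (595.9 against 676.2, -0.18, adjusted p = 0.0304). Paqr6 also rose with the microglia score (0.16 log2 per SD, edgeR adjusted p = 0.0067) and with the astrocyte score (0.16, edgeR adjusted p = 0.0242), the latter not called without library 3 (0.14, edgeR adjusted p = 0.0723). Neither rise was called when the block was dropped from the fit (0.16 and 0.09, edgeR adjusted p = 0.069 and 0.297). Of the coregulators and chaperones, 7 of 8 were above the minimum. The immunophilin Fkbp4, which helps receptors mature, was lower from number 32 (1821 against 2025, -0.15, edgeR adjusted p = 0.00155). With the excitatory neuron score 3 receptor genes rose (Paqr7, Paqr8 and Esrrg) and 1 fell (Esrra), and the coactivators Ncoa1 and Ncoa2 rose. Over the whole list 6 of 48 rose and 8 fell, 12.5% and 16.7% against 16.9% and 18.6% of all genes, and without libraries 3 and 19 there were 1 and 1. Of the 6 genes named here Paqr7, Paqr8 and Ncoa2 were still called without library 3, and Ncoa2 alone (0.20 per SD, edgeR adjusted p = 0.0443) without both.

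For cholesterol delivery, 4 of 5 genes were above the minimum, among them Vdac1 with 3257 ± 179.8 and Dbi, whose product binds Tspo, with 879.8 ± 170.4 normalized counts (SD, n = 27). Dbi fell with the excitatory neuron score by 0.23 on the log2 scale per SD (SE 0.02, edgeR adjusted p = 6.233e-10), where 18.6% of all genes fell. It was still called without library 3 (-0.14, adjusted p = 1.288e-05) and without libraries 3 and 19 (-0.12, adjusted p = 0.00119), which Tspo was not. Dbi also fell with the interneuron score (-0.13 log2 per SD, SE 0.04, edgeR adjusted p = 0.0395) and rose with the oligodendrocyte score (0.13, SE 0.04, edgeR adjusted p = 0.0436), where 4.42% of all genes were called in either direction and 2.34% rose. Neither was called without library 3 (-0.04 and 0.04, edgeR adjusted p = 0.645 and 0.613). Star, the steroidogenic acute regulatory protein, had a mean of 7.60. Of 11 synthesis genes 6 were above the minimum, with Hsd3b7 at 166.6 ± 23.2 and Fdxr at 146.2 ± 19.2, while Cyp11a1, which makes pregnenolone, had 8 reads in all libraries together. None of these 10 genes above the minimum differed between the blocks.

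Conversion was the largest class, with 10 of 18 genes above the minimum. Hsd17b12 had 813.8 ± 69.4 and Hsd17b10 had 380.4 ± 43.8 normalized counts (SD, n = 27), and both were lower from number 32 (-0.12 and -0.19, edgeR adjusted p = 0.0452 and 0.013), whereas Srd5a3 was higher (0.17, adjusted p = 0.0373). Srd5a2, the other 5-alpha-reductase gene of steroid tissues, had 30 reads in all. Of the 6 breakdown genes 4 were above the minimum, and Cyp46a1, the cholesterol hydroxylase of neurons, was higher from number 32 (0.14, edgeR adjusted p = 0.00822) and fell with the oligodendrocyte score (-0.06 log2 per SD, edgeR adjusted p = 0.0129). That fall was not called when the block was dropped from the fit (-0.05, edgeR adjusted p = 0.277). Among 5 sulfation genes Sult4a1 had 5234 ± 277.7, and the steroid sulfatase Sts was higher from number 32 (204.9 against 152.5, 0.43, edgeR adjusted p = 7.664e-05). Sts, like Shbg, is among the genes that the study lists with the LD test. With the meningeal fibroblast score 5 of the 48 genes rose and 0 fell, 10.4% against 2.47% of all genes called in either direction. They were Akr1c14, a hydroxysteroid dehydrogenase (0.99 log2 per SD, edgeR adjusted p = 5.792e-10), the sulfotransferase Sult1a1 (0.47, adjusted p = 5.088e-10), Cyp21a1 (0.45, adjusted p = 0.000168), the sterol hydroxylase Cyp27a1 (0.41, adjusted p = 6.636e-05) and Fkbp5 (0.08, adjusted p = 0.0326), the last of which missed the threshold without libraries 3 and 19 (adjusted p = 0.105). Summed markers of this type ranged from 303 to 6861 normalized counts up to number 31 and from 377 to 4138 from number 32, with 8 of 8 detected. Of the 4 other plasma carriers Alb was the one above the minimum, with 133.3 ± 26.2 normalized counts (SD, n = 27), and Ttr had a mean of 3.70.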

How the data were processed

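Single reads were taken from bilateral mPFC RNA of 27 rats, with a library for each. The deposited values are raw counts, the reads assigned to each gene in each library, by NCBI gene ID and without normalization. The submitters' processing notes name Trimmomatic, STAR and HTSeq. Their versions, the build and how strand was handled are not given in the sources used here, and labels and methods differ on the library kit and on the section taken. Of 36865 rows 27825 were named from RefSeq (GRCr8) by exact gene ID. All 27 columns were used, and no other column of per-sample values was present (0). The members, gene lists and markers were chosen with earlier results of these data known.

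Counts were divided by median-of-ratios size factors (DESeq2 1.42.0), and log2 values are log2(normalized count + 1). Spread was tested by a chi-square dispersion test over the 11730 genes whose mean count reached 10. Changes with the library number block (up to 31, from 32) and with marker scores (mean z score of log2 CPM over a type's markers, scaled to an SD of 1) were tested with edgeR 4.0.16 (filterByExpr, TMM, quasi-likelihood) over 11716 genes, Benjamini-Hochberg adjusted and called under 0.05. Intervals of log2 changes are the estimate ± 1.96 SE. Correlations are over the 27 libraries, with two-sided tests of 100000 permutations adjusted over 15 pairs or 42 relations of members and scores. Beside the members, the 3 genes of highest rho to each, the neighbouring and overlapping genes, the 2 pathway genes of highest mean count in each role and those called between blocks were named, and a few pathway genes (Star, Cyp11a1, Srd5a2 and those following a cell type score) and the genes of lowest rho were named after their values were seen. A few genes that the rule would name are not reported here. The methods were tested on simulated counts. With 1 library per rat, p-values measure the spread between these rats, biological and technical together. Alternatives were other scalings, pseudocount 0.1, no filter, DESeq2 tests, the block or the number as covariate, and, chosen after seeing the data, leaving out library 3 or libraries 3 and 19. The reads behind each member ranged from 0 to 833 per library, and the share of counting noise is given with each. Anxiety scores were not used here.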

Additional observations from a re-analysis of the deposited data

How the results depend on the processing

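Depth limited the estrogen receptors, whose SD of log2 values went from 0.84 to 1.84 for Esr1 and from 0.85 to 2.06 for Esr2 with a pseudocount of 0.1. Library number as a continuous covariate called 2 members (Hsd17b4 and Cyp7b1) where the blocks called 1 (Tspo). Dropping the block from the score fits gave 288 genes for astrocytes (175 with it), 70 for microglia (108) and 200 for oligodendrocytes (397), left 1 member called for oligodendrocytes, and added 1 for interneurons (Tspo) and 1 for excitatory neurons, where 3 were then called (Hsd17b4, -0.06, edgeR adjusted p = 0.036). DESeq2 called 1024 genes and 2 members for interneurons (518 and 0 with edgeR) and 165 genes and 1 member for microglia. Median-of-ratios factors in edgeR gave 905 genes and 2 members for interneurons.

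Without library 3 the excitatory neuron score was followed by 1728 genes and 1 member (4154 and 2 with all libraries), and without libraries 3 and 19 by 690 and 0. The interneuron score was then followed by 0 genes in both cases by edgeR, and the oligodendrocyte score by 213 and 217 genes and 1 member each, Srd5a1. Pairs called by rho were 2 with block means removed and 1 otherwise. Pairs called by r were 3, with 5 when block means were removed, 2 with total counts, 1 over all 28 pairs, 1 without library 3 and 2 without libraries 3 and 19, of which Shbg with Pgr was not among the 3. Against the main setting, no member value or pair reversed its direction in an alternative where either was called. Values within single blocks are not part of that comparison. Why these counts moved was not tested. No paired analysis was possible because the libraries form 1 group.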
